A study of Drosophila melanogaster with 10 samples.

Results

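Kr-h1, Met and gce are the genes of the juvenile hormone receptors and of their best known target. They were chosen by gene symbol, and all 3 have 1 row each among the 13041 genes of the table. Juvenile hormone is a lipid hormone made by the corpora allata, glands next to the larval brain. Inside a cell it binds Met (Methoprene-tolerant) or Gce (germ cell-expressed), related transcription factors of the bHLH-PAS class that share much of their function in flies. The hormone-bound receptor joins the coactivator Taiman and switches on Kr-h1 (Krüppel homolog 1), a zinc finger factor that holds back metamorphic genes in many insects; in Drosophila, ecdysone is known to act on Kr-h1 as well.

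RNA was measured in the wing imaginal disc, the sac of larval cells from which wing and dorsal thorax of the fly arise, in Drosophila melanogaster of the genotype yw, which all groups share. Collection ran through the last larval instar (L3), with n = 2 libraries, A and B, at each of 5 times: 6, 15, 25, 35 and 48 h after the L2/L3 molt. Larvae of the 48 h group were wandering. The labels do not say whether A and B came from separate cultures, so p-values measure only the spread between these libraries, which may be technical.

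The recovered reads per library lay between 16814685 and 38003104. Values are signal, meaning reads of a gene divided by 1 size factor per library, and 1 read equals a signal of 0.596 to 1.40. Changes are differences of log2(signal + 1) with the standard error (SE) of limma, tested over 10453 genes with Benjamini-Hochberg adjustment and called at an adjusted p under 0.05. All 9 disc markers (vg, nub, ap, wg, en, Dll, rn, tsh and pnr) had reads in every library, with a summed signal of 43193 to 44410 at 48 h and 18254 to 18554 at 6 h. Libraries A and B of 15 h stood apart from each other: their Spearman coefficient across tested genes was 0.870, against 0.976 to 0.994 at the other times.

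Kr-h1 rose and gce fell over the instar, while Met did not pass the test over all 5 times. By a moderated F test of limma, adjusted p was 0.00570 for Kr-h1, 0.0180 for gce and 0.157 for Met. The gce call ended when either library of 6 h or either of 48 h was left out (0.0625 to 0.0924) and under quantile normalization (0.0567). Thus 2 of 3 passed, where 38.4% of all tested genes did. It was also 2 of 3 at 48 h against 6 h, where 49.1% of tested genes passed. Without both 15 h libraries it was 2 of 3 as well, but there 7170 of the 10453 tested genes passed. The libraries of 48 h and 6 h did not overlap for any of the 3 genes, as for 86.7% of tested genes. For Met they nearly touched, at 603.7 in 48 h A and 602.8 in 6 h A. In bulk tissue, fewer cells of a type and less RNA per cell cannot be told apart.

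**Figure D1:**
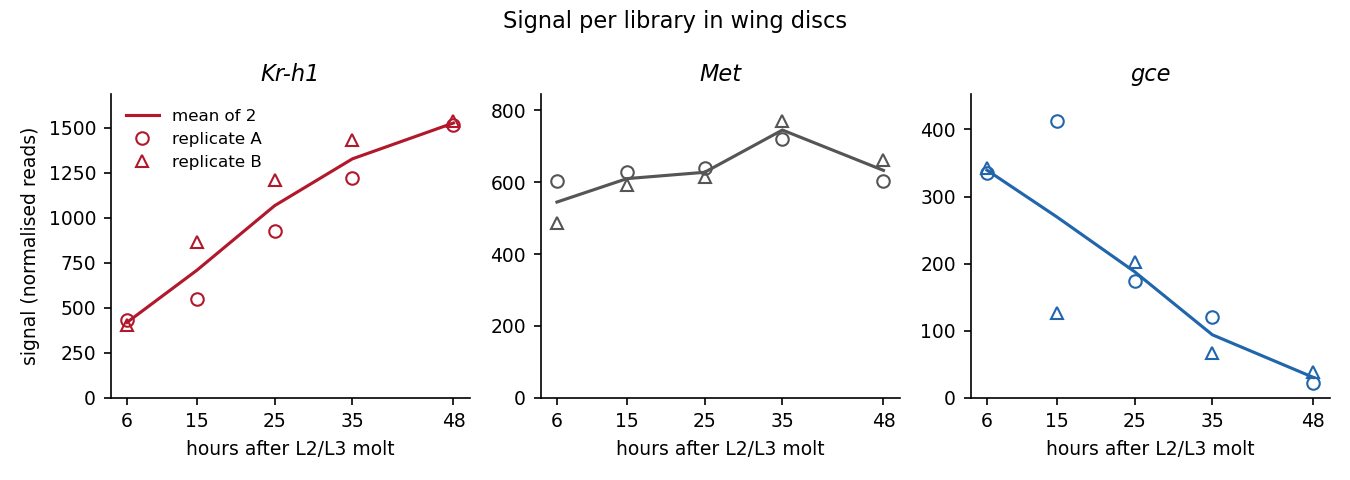
Signal of Kr-h1, Met and gce (y axes, normalised reads, linear and starting at 0, with a scale per gene) against hours after the L2/L3 molt; circles are replicate A, triangles replicate B and lines the mean of 2. Kr-h1 reached 1517 and 1537 at 48 h, gce went down to 22.7 and 38.1, and the 15 h replicates of gce lie at 412 and 127.

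Met (FBgn0002723, plus strand of chrX:11616124-11621280, dm6), the receptor gene first found through resistance to a hormone analogue, varied least. It had a signal of 603 (A) and 487 (B) at 6 h, 628 and 592 at 15 h, 640.1 and 615 at 25 h, 721 and 770.1 at 35 h, then 604 and 663 at 48 h. The 35 h libraries were the highest and stood above every other library, and 6 h B was the lowest. At 48 h against 6 h Met averaged 633 ± 41.6 and 545 ± 81.8 (SD, n = 2 each), a log2 change of 0.22 (SE 0.13, adjusted p 0.201). That call depends on scaling, since with a common median of all genes the change was 0.54 (adjusted p 0.0386). Its size rests on the 6 h libraries, with 0.38 without 6 h A (0.0961) and 0.069 without 6 h B (0.726).

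In order of level, Met ran from 35 h through 48, 25 and 15 h to 6 h, and no neighbours in that order differed by the test. Of the 10 pairs of times only 35 h against 6 h passed, with 745 ± 34.9 and 545 ± 81.8 (log2 0.46, adjusted p 0.0310; 45.6% of tested genes passed there). It did not pass without 6 h B, either library of 25 h, either of 35 h or either of 48 h (adjusted p 0.0523 to 0.157), and without 6 h B the change was 0.31.

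gce (FBgn0261703, plus strand of chrX:15297766-15319074, dm6), the second receptor gene, fell about 11.2-fold across the instar. It had a signal of 336 (A) and 343 (B) at 6 h, 412 and 127 at 15 h, 174 and 202 at 25 h, 121 and 67.1 at 35 h, then 22.7 and 38.1 at 48 h. Both 48 h libraries were below all others, and the 15 h libraries alone straddled the 6 h values. At 48 h against 6 h the means were 30.4 ± 10.9 and 339 ± 5.16 (SD, n = 2 each), a log2 change of -3.48 (SE 0.57, adjusted p 0.00368). At this comparison 26.8% of tested genes were called lower, and 13.3% changed by as much or more in that direction. Under quantile normalization the change was -2.22 (adjusted p 0.0112).

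The gce counts at 48 h were small, with 34 and 64 reads. Their exact 95% Poisson intervals, which cover counting error only, were signals of 15.7 to 31.8 for A and 29.4 to 48.7 for B. At 6 h gce had 392 and 257 reads.

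The level of gce fell in the order of time from 6 h to 48 h, but no step from one time to the next passed the test. At 15 h against 6 h the log2 change was -0.57 (adjusted p 0.612), a value that was -1.41 without 15 h A (adjusted p 0.0450) and 0.28 without 15 h B. At 25 h against 15 h it was -0.29 (adjusted p 0.810), with 0.56 without 15 h A and -1.13 without 15 h B, so that no direction holds for either early step. At 35 h against 25 h it was -1.05 (adjusted p 0.374), and at 48 h against 35 h it was -1.58 (adjusted p 0.332). The last of these passed without 15 h A (0.0426), without 15 h B (0.0431) and without both (0.0424).

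Over longer spans the fall of gce passed at 35 h against 6 h (log2 -1.90, adjusted p 0.0339), at 48 h against 15 h (-2.92, 0.0145) and at 48 h against 25 h (-2.63, 0.0318). In these comparisons 45.6%, 25.7% and 10.4% of all tested genes passed. It did not pass at 25 h against 6 h (-0.85, 0.313) or at 35 h against 15 h (-1.34, 0.132). With only the 2 times in the fit 25 h against 6 h gave 0.0305, and 35 h against 15 h passed in DESeq2 (0.0475). Without 15 h B that change was -2.18 (0.00522) and without 15 h A it was -0.49 (0.465). The call at 48 h against 25 h ended when a single library of any time but 15 h was left out (0.0573 to 0.193) and under quantile normalization (0.111). That at 35 h against 6 h ended on the same omissions (0.0512 to 0.166) and under quantile normalization (0.131). That at 48 h against 15 h ended without 48 h A (0.0944) or 48 h B (0.0589), and with only those 2 times in the fit (0.160).

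The balance between the receptor genes moved with gce. Per kilobase of merged exons (5.09 kb for Met and 5.81 kb for gce), gce averaged 58.4, 46.4, 32.3, 16.2 and 5.24 signal per kb at 6, 15, 25, 35 and 48 h. Met averaged 107, 119.9, 123, 147 and 124 signal per kb at the same times. gce thus made up 35.5% ± 3.79 of the summed signal per kb at 6 h and 26.2% ± 14.6 at 15 h (SD, n = 2 each). Its share was 20.8% ± 2.17 at 25 h, then 9.94% ± 4.04 at 35 h, and 3.996% ± 1.14 at 48 h. The mean of their sum lay between 156 and 166 signal per kb from 6 to 35 h and was 129.7 ± 10.1 at 48 h. Among tested genes ranked by signal per kb, gce stood at the percentile of 14.2 at 48 h and 24.7 at 6 h, while Met stood at 40.2 at 48 h and 30.8 at 6 h.

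**Figure D2:**
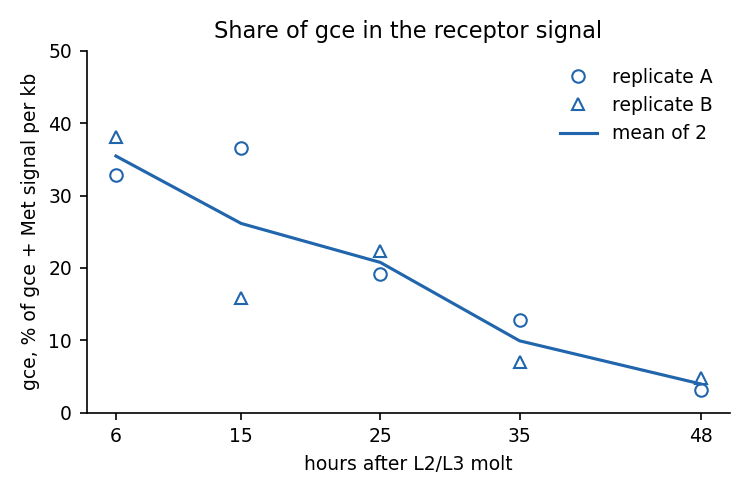
Share of gce in the summed gce and Met signal per kilobase of exon (y axis, percent) against hours after the L2/L3 molt; circles are replicate A, triangles replicate B and the line the mean of 2. The share is 3.19% and 4.80% at 48 h, against 32.8% and 38.1% at 6 h.

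An exact permutation test asked whether the log2 ratio of a pair of genes differed between times, over all 945 ways to split the 10 libraries into 5 pairs. Ratios are differences of log2(signal + 1) within a library. The added 1 makes them depend slightly on scale where gce is low. For gce to Met the ratio was -4.38 at 48 h and -0.67 at 6 h (exact p 0.0127, also 0.0127 adjusted over the 3 ratios). For Kr-h1 to Met it was 1.27 at 48 h and -0.37 at 6 h (exact p 0.00847, adjusted 0.0127). For Kr-h1 to gce it was 5.65 at 48 h and 0.30 at 6 h (exact p 0.00635, adjusted 0.0127). The smallest p this design allows is 0.00106.

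Kr-h1 (FBgn0266450, plus strand of chr2L:6082603-6096498, dm6) rose 3.64-fold. It had a signal of 432 (A) and 406 (B) at 6 h, 551 and 867 at 15 h, 926 and 1209 at 25 h, 1221 and 1434 at 35 h, then 1517 and 1537 at 48 h. No library of a later time was below any library of an earlier time. At 48 h against 6 h the means were 1527 ± 14.4 and 419 ± 18.9 (SD, n = 2 each), a log2 change of 1.86 (SE 0.23, adjusted p 0.00125). At this comparison 22.3% of tested genes were called higher, and 2.83% changed by as much or more in that direction.

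The mean of Kr-h1 was highest at 48 h and lower at each earlier time, and no neighbours in that order passed the test. The log2 steps were 0.72 at 15 h against 6 h (adjusted p 0.127), 0.61 at 25 h against 15 h (0.305), 0.32 at 35 h against 25 h (0.496) and 0.21 at 48 h against 35 h (0.853). The first step passed at 0.00628 without 15 h A, with a log2 change of 1.05, and in DESeq2 at 0.0378, but the change was 0.39 without 15 h B and did not pass. The second passed without 15 h B at 0.00586 (log2 0.94), but the change was 0.29 without 15 h A and did not pass. Among all tested genes 4.22%, 0.134%, 3.94% and 0.392% passed at these steps, in the same order.

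Over longer spans Kr-h1 was higher at 25 h than at 6 h (log2 1.34, adjusted p 0.0134, 16.9% of tested genes passing), at 35 h than at 6 h (1.66, 0.00291) and at 35 h than at 15 h (0.94, 0.0410, 15.7% passing). It was higher at 48 h than at 15 h too (1.14, 0.0155). The change of 0.53 at 48 h against 25 h did not pass (0.226), but it did without 15 h A (0.0314), without 15 h B (0.0332) and without both (0.0311). Without 25 h A it was 0.34 (0.719). At 25 h against 6 h the call ended without 6 h A, 6 h B or 25 h B (adjusted p 0.0757 to 0.0862) and with libraries scaled to totals without other tissues (0.0676). At 48 h against 15 h it ended without 48 h A (0.0868) or 48 h B (0.0949), and with only those 2 times in the fit (0.153). At 35 h against 15 h it ended without any 1 library other than 15 h B (0.0558 to 0.204), with a change of 0.61 without 15 h A. It also ended there in edgeR (0.0583), without the intensity trend (0.0562), with TMM factors (0.0523), under quantile normalization (0.0609) and with only those 2 times in the fit (0.279).

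**Figure D3:**
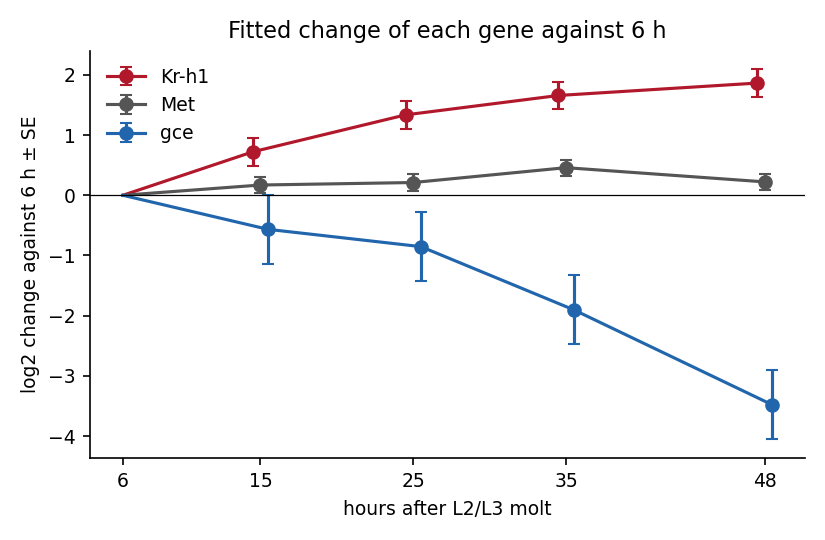
Fitted log2 change against 6 h (y axis) with its SE (bars) for Kr-h1, Met and gce against hours after the L2/L3 molt; points are shifted sideways slightly, and all start from 0 at 6 h. Kr-h1 reaches 1.86 and gce -3.48 at 48 h, while Met stays between 0.17 and 0.46.

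The annotation bears on how the reads can be assigned. Kr-h1 has 2 annotated transcripts with separate starts, and 4168 of its 5306 exonic bases (78.6%) also belong to CG45075, a protein-coding gene on the same strand at chr2L:6091412-6096498. Strand cannot separate reads in those exons, and the treatment of shared reads is not given in the sources used here. If shared reads were counted for Kr-h1, its signal and its change over time could also hold reads of CG45075, which was not tested. The Kr-h1 level per length is therefore uncertain: 288 signal per kb at 48 h over all its exons, or 1342 over its 1138 unshared bases, against 79.0 and 368 at 6 h. By signal per kb over all its exons, Kr-h1 stood at the percentile of 52.9 among tested genes at 48 h and 27.4 at 6 h. For gce, 2197 exonic bases (37.8%) lie opposite exons of the antisense gene asRNA:CR44961, and 167 opposite asRNA:CR44429. The labels describe stranded libraries, but the strand setting of the counting was not stated. CG45075 and both antisense genes were not analysed here. No annotated gene overlaps Met.

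Summed markers of other larval tissues were lower at 48 h than at 6 h, as gce was. The summed signal of muscle genes (Act57B and Tm2, 2 of 6 listed genes) was 3949 to 5510 at 48 h, against 151593 to 210141 at 6 h. That of 6 haemocyte genes was 11033 to 13856 at 48 h and 81850 to 118892 at 6 h, and that of 8 gut protease genes 116 to 135 at 48 h and 46563 to 124281 at 6 h. The 9 fat body genes summed to 48287 to 114267 at 48 h and 373995 to 726466 at 6 h, and were highest at 25 h. At 15 h, where gce was 412 in A and 127 in B, the gut list summed to 354066 in A and 4980 in B, the muscle list to 131948 and 143797, and the fat body list to 223060 and 530712. The part of these tissues in the gce signal was not tested. Kr-h1 ran the other way and had its highest mean at 48 h, where these 4 lists had their lowest. The summed disc markers were higher at 48 h than at 6 h, as given above, and their part in the Kr-h1 signal was not tested.

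Other tissue lists differed less or ran the other way between these times. The 4 tracheal genes summed to 11923 to 15051 at 48 h and 19538 to 21385 at 6 h. The 4 neuronal genes summed to 911 to 922 at 48 h and 1185 to 1343 at 6 h. The 6 salivary gland glue genes summed to 235 to 270.5 at 48 h and 1.71 to 12.0 at 6 h.

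**Figure D4:**
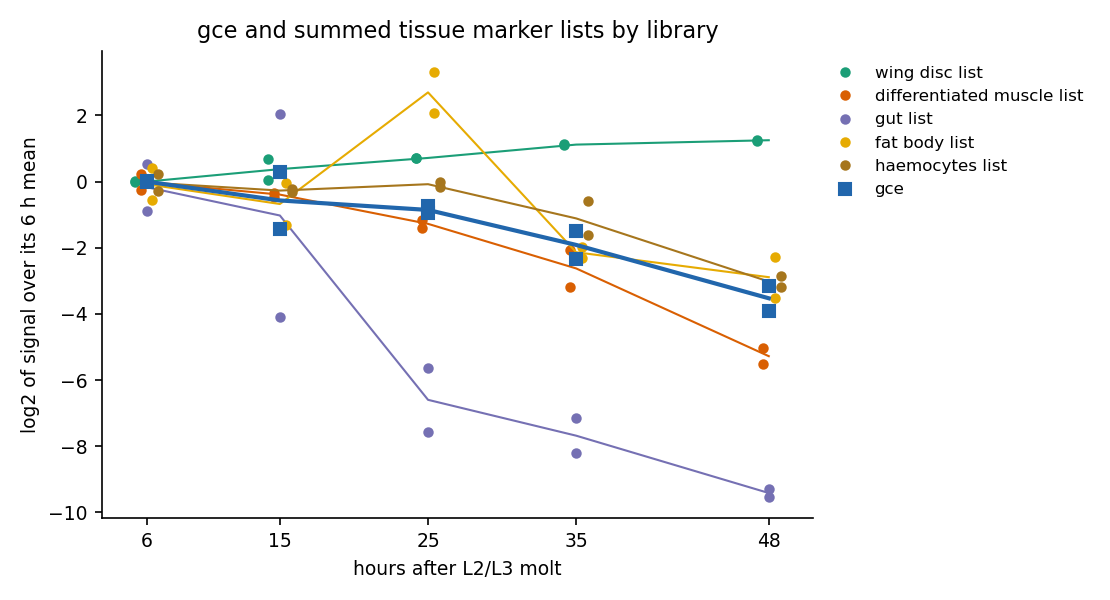
Log2 of the signal over its own 6 h mean (y axis) for gce (squares) and for the summed signal of 5 marker lists (points, shifted sideways slightly) in each library, against hours after the L2/L3 molt; lines join the means of the log2 values. The mean of gce lies between those of the haemocyte and the muscle list at 48 h, and the disc list alone is above its 6 h level there.

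Among genes whose products work with the receptors, the coactivator gene tai showed no change past the test and several others were lower at 48 h. tai, the bHLH-PAS partner named here after its values were seen, had 5248 ± 410 at 48 h and 5405 ± 162 at 6 h (log2 -0.04, SE 0.10, adjusted p 0.726). Its means at all 5 times lay between 5058 and 5439, and the sign of its change turned under other scalings. Of 5 receptor partner genes tested, 3 were lower and 0 higher, where 26.8% of all tested genes were lower and 22.3% higher. Their median change was -0.82, against -0.10 for all tested genes. ftz-f1, a nuclear receptor that binds Met and Gce, fell by 1.43 (adjusted p 0.000671), with means of 535 ± 87.5 at 48 h and 1437 ± 30.5 at 6 h, and its step at 48 h against 35 h also passed (log2 -1.55, adjusted p 0.0229).

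Hsp83, the chaperone gene linked to nuclear import of Met, and Fkbp39, a gene whose product binds hormone response elements, were lower by 0.91 and 0.82 on the log2 scale (adjusted p 0.00826 and 0.00744). Hsp83 averaged 87539.7 ± 17045 at 48 h and 163375 ± 7894 at 6 h. These calls depend on scaling. They ended under quantile normalization, with a common median and with totals without other tissues (0.0729 to 0.286), and that of Hsp83 also without 48 h B (0.0561).

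Genes that make the hormone are known to act in the corpora allata, and jhamt, the gene of the methyltransferase that marks those glands, was nearly absent. It had 8 reads in all, 5 of them at 6 h, and 0 reads in each library of 35 and 48 h, where a count of 0 allows up to 3 reads. Of 7 synthesis genes tested, 3 were lower and 1 higher at 48 h than at 6 h, a share near the 49.1% of all tested genes that passed there. Their median change was -0.39, against -0.10 for all tested genes. Most belong to the mevalonate pathway, which all cells use. Hmgs, at its start, fell by 0.99 to 1365 ± 41.5 at 48 h, against 2725 ± 345 at 6 h (adjusted p 0.00311). Idi fell by 0.68 and Mvd, the decarboxylase gene, rose by 0.49 (adjusted p 0.0188 and 0.0442). Cyp6g2, a cytochrome P450 gene, had 30.9 ± 0.163 at 48 h and 169 ± 19.1 at 6 h (log2 -2.41, adjusted p 0.0231). The calls of Idi, Mvd and Cyp6g2 ended when a single library of 6 h or of 48 h was left out (0.0743 to 0.187). That of Mvd ended without either library of 35 h too (0.0669 and 0.0675) and without a filter on low values (0.0519). Cyp6g2 also lost its call under quantile normalization (log2 -0.67, adjusted p 0.249). Idi lost its call with a common median (0.120) and with totals without other tissues (0.145), and it turned sign under quantile normalization (log2 0.37).

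A gene that breaks the hormone down and a gene named for induction by it fell much further. Jheh3, an epoxide hydrolase gene, had 18.7 ± 2.86 at 48 h and 1603 ± 759 at 6 h (log2 -6.27, SE 1.27, adjusted p 0.00782). Of 3 turnover genes tested 1 was lower and 0 higher, near the 26.8% of all tested genes that were lower. Their median change was -3.71, against -0.10 for all tested genes. That median was the change of the esterase gene Jhe, which did not pass (adjusted p 0.101) and is given after its values were seen. Jhe rests on few reads, with 3 in 48 h A and 1 in 48 h B, against 28 in 6 h A and 24 in 6 h B. Jhedup, also tested, had 51 reads over all libraries. Jhe passed without 15 h A (0.00450), without 15 h B (0.00411), with only the 2 times in the fit (0.00437) and in DESeq2 (0.0238). JhI-26, juvenile hormone-inducible protein 26, had 9.90 ± 4.54 at 48 h and 538 ± 36.7 at 6 h (log2 -5.69, SE 0.95, adjusted p 0.00390), while JhI-21, an amino acid transporter gene, stood at 0.14 (adjusted p 0.515). Thus 1 of 2 hormone-inducible genes tested was lower and 0 higher, against 26.8% and 22.3% of all tested genes. Without both 15 h libraries 2 of 2 passed, JhI-26 as lower and JhI-21 as higher, where 7170 of the 10453 tested genes passed. The tissue lists given for gce fell over the same span, and their part in these changes was not tested.

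**Figure D5:**
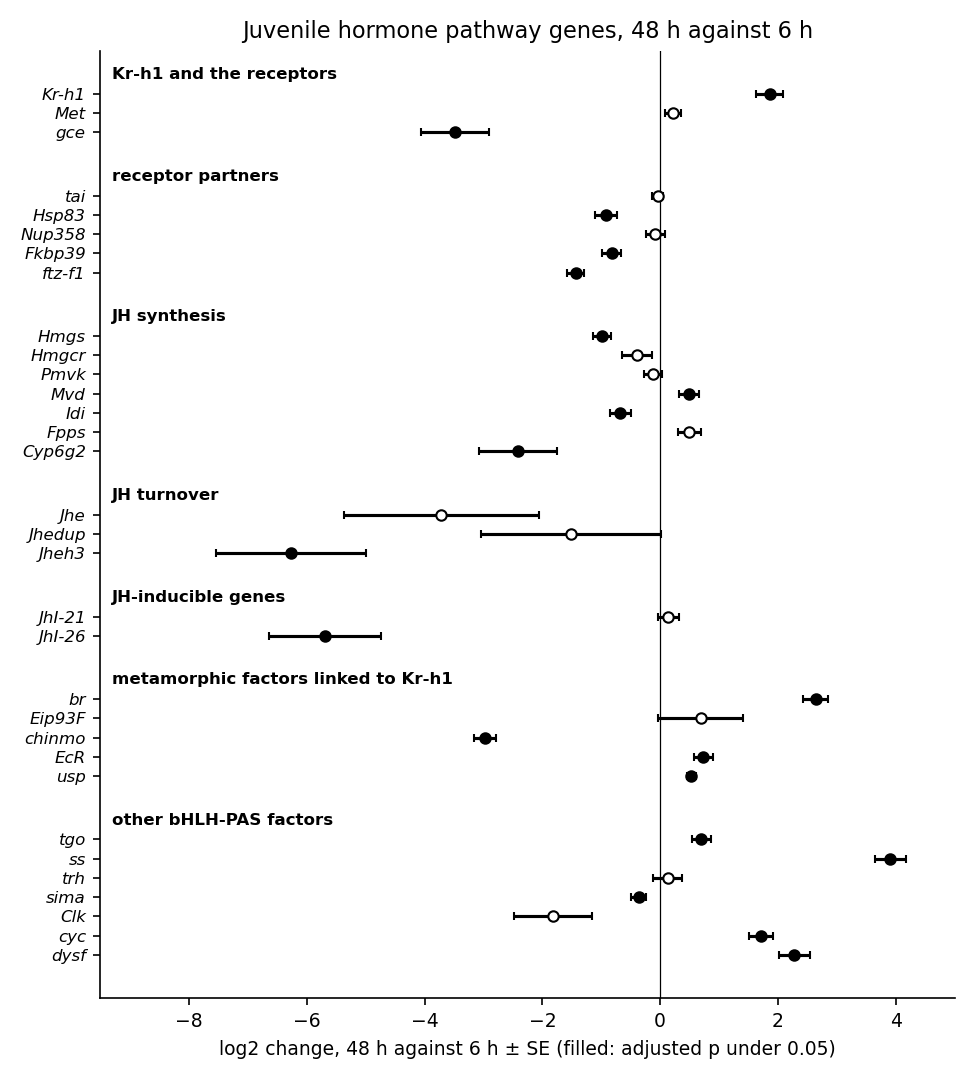
Log2 change at 48 h against 6 h (x axis) with its SE (bars) for Kr-h1, Met, gce and the tested genes of each list (rows); filled circles passed at an adjusted p under 0.05, and tai is drawn once, with the receptor partners. Jheh3 at -6.27 and JhI-26 at -5.69 lie farthest left, and ss at 3.91 farthest right.

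In insects Kr-h1 is known for acting on metamorphic factors, of which 3 of 5 rose and 1 fell at 48 h against 6 h. Over all tested genes 22.3% were higher and 26.8% lower there. Their median change was 0.69, against -0.10 for all tested genes. That median was the change of Eip93F, which had 90 reads over all libraries and did not pass. br, the gene of the Broad factors, had 23246 ± 1545 at 48 h and 3766 ± 743 at 6 h (log2 2.64, adjusted p 0.000357). chinmo, a gene of early larval identity, had 1231 ± 46.7 at 48 h and 9667 ± 223 at 6 h (log2 -2.97, adjusted p 0.000219). Genes of the ecdysone receptor rose less, EcR by 0.73 and its partner usp by 0.53 (adjusted p 0.0104 and 0.00250). The call of EcR ended without 6 h A (0.0589) or 48 h B (0.0718). Eip93F, which Kr-h1 represses in other insects, stayed at a mean signal of 4.88 to 14.9 at all times (log2 0.69, adjusted p 0.448).

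Most other bHLH-PAS genes did not run like gce. Of the 8 tested, with tai again among them, 4 were higher and 1 lower at 48 h than at 6 h, against 22.3% and 26.8% of all tested genes. Their median change was 0.41, against -0.10 for all tested genes. ss, which encodes Spineless, a factor of distal appendage identity, rose by 3.91 to 695 ± 2.71 at 48 h, against 46.4 ± 13.6 at 6 h (adjusted p 0.000235). dysf, cyc and tgo, genes of the factors Dysfusion, Cycle and Tango, rose by 2.28, 1.71 and 0.70 (adjusted p 0.00102, 0.00104 and 0.0122). The call of tgo ended without 6 h A, 48 h A or 48 h B (0.0580 to 0.0711). sima, the gene of the hypoxia factor Sima, was lower by 0.37 (adjusted p 0.0460). That call ended under most alternatives, with changes of -0.05 to -0.47 and adjusted p up to 0.783. Clk, the gene of the clock factor Clock, had 2.83 ± 0.216 at 48 h and 12.6 ± 2.74 at 6 h and did not pass (log2 -1.82, adjusted p 0.0565); it is given here after its values were seen.

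As a description, the genes whose log2 signal ran most like each of the 3 were taken by Pearson's r over the 10 libraries, which share the order of time and the 15 h gap. For Kr-h1 these were CG8389 (r = 0.996), His4r, a replication-independent histone H4 gene (0.992), and rumi, a glycosyltransferase gene of the Notch pathway (0.992). CG8389 averaged 917 at 48 h and 492 at 6 h, a smaller rise than that of Kr-h1. For gce they were CG46385 (0.984), the adenosine receptor gene AdoR (0.978) and the sulfotransferase gene St3 (0.976). AdoR averaged 3.76 at 48 h and 163 at 6 h, a deeper fall than that of gce. For Met the closest were Fign, CG6983 and CG42806, with lower r of 0.931, 0.931 and 0.925. The ranks of these genes depend on the measure. By r over the 5 time means, in the order named, they were 77, 64 and 2 for Kr-h1. They were 1, 21 and 173 for gce, and 64, 37 and 364 for Met. Means that rise at every step, as those of Kr-h1, were found in 10.7% of tested genes, and means that fall at every step, as those of gce, in 9.05%.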

How the data were processed

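Per the labels' protocols, total RNA was freed of ribosomal RNA and made into stranded libraries, while the labels name the molecule polyA RNA. Per the submitters' processing notes, STAR 2.7.10a and featureCounts (no version) were used with dm6 and BDGP6. The strand setting, normalization tool and any gene filter are not given in the sources used here. The deposited unit is signal, reads of a gene divided by the authors by 1 size factor per library. Dividing by the value of 1 read gave whole numbers within 0.001 for 100% of values. Those recovered reads were used for edgeR 4.0.16 and DESeq2 1.42.0 as alternatives.

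A gene entered the test with a signal of 10 or more in 2 or more libraries (10453 genes). Means were fitted by limma 3.58.1 (R 4.3.3) on log2(signal + 1), with an intensity trend and 1 mean per time (5 residual degrees of freedom, at least 6.90 after moderation). It was two-sided, and the Benjamini-Hochberg method adjusted p over all tested genes. Because 1 is added, changes of low genes are understated. All 10 pairs of times were compared. The later time is always minus the earlier. Kr-h1, Met and gce passed the minimum in all 10 libraries. The fit was tested on simulated data. That simulation gave each gene the same dispersion at every time, unlike these data at 15 h, and is not used as support here. Coordinates and exon lengths come from the Ensembl annotation of BDGP6 (dm6 coordinates). Genes of each list past the threshold at 48 h against 6 h, or with the largest change in it, were named, as were the 3 genes most like each of Kr-h1, Met and gce. Outside this rule, tai, Jhe and Clk were named after their values were seen, and jhamt, JhI-21, Eip93F and Fpps were named as well. The members and lists were chosen with earlier results of these data known. Pathway genes with no values given, such as Chd64, Mvk, Jheh1 and JhI-1, were not analysed here. Alternatives covered pseudocount, filter, scaling, test, samples and replicate letters.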

Additional observations from a re-analysis of the deposited data

How the results depend on the processing

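At 48 h against 6 h, Kr-h1 and gce kept their direction and their call under every alternative run, with log2 changes of 1.82 to 2.22 for Kr-h1 and -3.84 to -2.22 for gce. Without any 1 library, Kr-h1 changed by 0.39 to 1.05 at 15 h against 6 h (0.77 in DESeq2, where it passed) and by 0.29 to 0.94 at 25 h against 15 h. For gce the ranges were -1.41 to 0.28 and -1.13 to 0.56 at the same steps, and -1.999 to -1.16 at 48 h against 35 h (-1.58 without both 15 h libraries, an alternative chosen after seeing the data). For Met they were -0.00080 to 0.084 at 25 h against 15 h, -0.015 to 0.12 at 48 h against 15 h and -0.056 to 0.078 at 48 h against 25 h; at 48 h against 6 h the range was 0.069 to 0.38, and Met passed there with a common median (0.54). The adjusted p of gce over all 5 times was 0.0567 under quantile normalization and 0.000894 to 0.0924 without any 1 library, where leaving out either library of 6 h or either of 48 h ended the call.

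Of receptor partner genes, 1 passed under quantile normalization, a common median or totals without other tissues, against 3. Of turnover genes 2 passed in DESeq2, with only the 2 times compared and without both 15 h libraries, against 1. Of hormone-inducible genes 2 passed without both 15 h libraries, against 1. Of all 10453 tested genes, 5321 passed under quantile normalization, 5309 with a common median and 4414 with totals without other tissues, against 5130. In DESeq2 5775 passed, with only the 2 times compared 6976, and without both 15 h libraries 7170. Without any 1 library the numbers passing were 1 to 6 for synthesis (against 4), 1 to 2 for turnover, 1 to 2 for hormone-inducible and 3 to 5 for other bHLH-PAS genes (against 5). tai changed by 0.078 under quantile normalization, 0.28 with a common median, 0.039 with TMM factors, 0.22 with totals without other tissues and 0.041 in edgeR, and by -0.12 to 0.035 without any 1 library. Idi was at 0.37 under quantile normalization.

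The median of all tested genes at 48 h against 6 h was -0.095, and 0.23 with a common median, 0.33 under quantile normalization and 0.17 with totals without other tissues. Of genes called there, 45.5% were higher, but 58.8% with a common median and 66.5% under quantile normalization. The count of 5130 calls there became 2499 to 7169 without any 1 library and 7170 without both of 15 h. Over all 5 times 4014 became 6114 in DESeq2 and 1609 to 7906 without any 1 library. The cause of these shifts was not tested. A and B did not pair the libraries: differences of A from B correlated between times at -0.0585 to 0.161. With the replicate letter as a block, Kr-h1 changed by 1.86 (adjusted p 0.00165) and gce by -3.48 (0.00624) at 48 h against 6 h, 4996 genes passed there, and the call of sima was lost (0.0639). With n = 2 per time, single steps are poorly resolved, and gce at 48 h rests on few reads.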

Other observations

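The libraries of 15 h differed in several genes of the hormone pathway. Signal in 15 h A was 5786 for Jheh3, 2033 for JhI-26, 256 for Jhe, 140.0 for Cyp6g2 and 412 for gce. In 15 h B it was 241 for Jheh3, 209 for JhI-26, 4.30 for Jhe, 27.9 for Cyp6g2 and 127 for gce. The summed signal of 8 gut protease genes was 354066 in 15 h A and 4980 in 15 h B, and its part in these differences was not tested. Kr-h1 ran the other way, with 551 in 15 h A and 867 in 15 h B, as did br with 5529 and 8250 and chinmo with 7801 and 11967. So did the summed disc markers, with 19156 in 15 h A and 29832 in 15 h B, and their part in these differences was not tested. Met was close to equal, with 628 in 15 h A and 592 in 15 h B, and so was usp with 1449 and 1433.

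Fpps, the farnesyl diphosphate synthase gene, had its highest mean at 25 h. It averaged 1165 ± 92.6, 2147 ± 510 and 2815 ± 513 at 6, 15 and 25 h, and 1463 ± 95.01 and 1643 ± 118 at 35 and 48 h (SD, n = 2 each). The 9 fat body genes held 16.4% of reads in 25 h A and 8.90% in 25 h B, their highest shares. The part of fat body in the Fpps level was not tested.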
